A study of Drosophila melanogaster with 12 samples.

Results

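The Rab genes of *Drosophila melanogaster*, which encode the small GTPases that direct membrane traffic, were read out in 12 RNA-seq libraries of adult trachea, larval trachea and whole flies. The members are the genes whose symbol consists of Rab or RabX, a number and at most capital letters after it, which 30 of the 17697 genes in the files met. A further 5 genes with Rab in their symbol, *Rab3-GAP*, *Rab3-GEF*, *Rab9Db*, *Rab9Fa* and *Rab9Fb*, did not meet it. All animals were w1118, a stock that carries a mutation of the eye colour gene *white*. The adult trachea (4 libraries) was dissected by hand from females 5 to 7 days old, the larval trachea (4 libraries) from 3rd instar larvae of both sexes, and the third group (4 libraries) was whole adult females, whose age the methods do not give. Each library pooled 3 animals, so the spread between libraries is that between pools. Whole-fly RNA was diluted before cDNA synthesis, and all cDNA was amplified by PCR because little cDNA was obtained.

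A Rab protein is a switch that is anchored in a membrane by prenyl groups. An exchange factor loads it with GTP, the GTP-bound form recruits effectors such as tethers and motors to one class of vesicle or organelle, a GTPase-activating protein (GAP) turns it off, and the GDP dissociation inhibitor carries it back through the cytosol. In the trachea, a tubular epithelium that secretes a chitinous lining into its lumen, this traffic delivers the apical matrix, takes up luminal protein before the tubes fill with gas, and extends the hollow branches of the terminal cells. The members were ordered by role as endocytic (6 of early and recycling endosomes, 3 of late endosomes and lysosome-related organelles), secretory (9), neuronal (4) and other (8).

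The samples were first checked against cell type markers. The summed level of 14 genes of tracheal epithelium was 884 to 2273 RPKM in larval trachea, 69.0 to 161 RPKM in adult trachea and 22.1 to 40.9 RPKM in whole flies (RPKM, exon reads scaled by exon length and by the gene reads of the library), with *term* at 0 reads in every library and *trh*, the transcription factor that sets tracheal fate, at 0 reads in whole flies. Genes listed as markers of other organs were also read in the adult trachea. Fat body markers summed to 39092 to 84963 RPKM in it, against 13774 to 17236 RPKM in whole flies. They include *Yp1*, *Yp2* and *Yp3*, for which the paper reports strong expression in *btl*-expressing cells of the FlyCellAtlas. Eggshell and ovary markers reached 11404 RPKM in adult trachea replicate 4 against 63.9 RPKM in replicate 3. Replicate 3 was the deepest and 51.3% of its exon reads in 20 genes, against 15.1 to 15.7% in whole flies. In such bulk samples, fewer cells of a type and less RNA per cell cannot be told apart. The libraries held 5017919 to 14962142 gene reads each.

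The order of the members was largely shared by the 3 groups. The 30 members summed to 664 to 1456 RPKM in adult trachea, 835 to 991 RPKM in larval trachea and 1078 to 1342 RPKM in whole flies, so that in RPKM larval trachea lay wholly below whole flies and adult trachea overlapped both. The direction of the members' median in each trachea against whole flies turned with the scale, as given below. Between 24 and 27 members had at least 1 exon read in a library, and 24, 23 and 24 members averaged at least 1 RPKM in adult trachea, larval trachea and whole flies. The 3 group means ranked the members alike (Spearman's rho of 0.94 for each pair of groups, across 30 genes, which are not independent replicates). Secretory members made up 38.5 to 43.1% of the summed RPKM in adult trachea, 38.0 to 40.8% in larval trachea and 38.9 to 44.1% in whole flies, ranges that overlapped throughout. Endocytic members of late and lysosome-related organelles, by contrast, made up 15.3 to 24.7% in adult trachea and 18.2 to 21.7% in larval trachea, but 6.91 to 12.9% in whole flies, with no overlap of either trachea with the whole fly. That share was mostly *Rab7*, while *Rab9* and *Rab32* had lower mean RPKM in both tracheae than in whole flies. Early and recycling members moved the other way, also without overlap, at 29.1 to 35.04% in adult trachea, 32.4 to 35.4% in larval trachea and 38.0 to 41.9% in whole flies. The range of each member over the libraries is shown in the plot of levels by role.

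**Figure D1:**
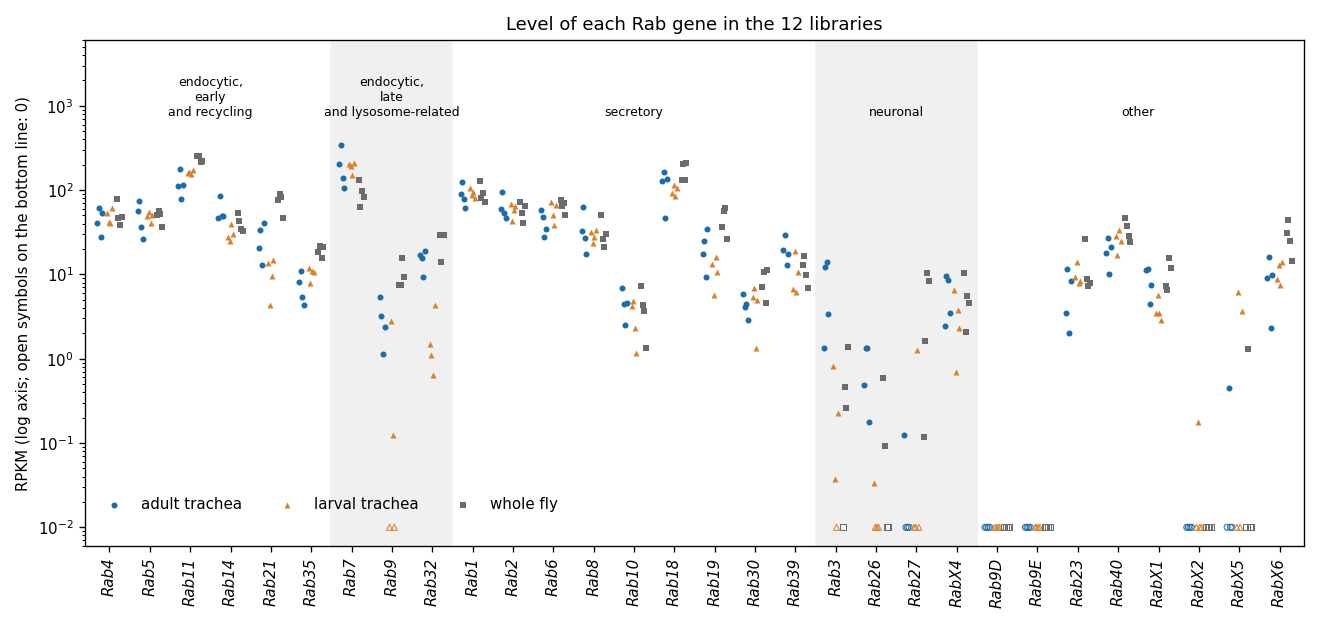
RPKM of the 30 Rab genes (log axis) in each of the 12 libraries, 4 per group, ordered by role, with open symbols on the bottom line for libraries at 0. *Rab7* and *Rab11* were at the top, *Rab9D* and *Rab9E* were at 0 throughout, and *Rab3*, *Rab26*, *Rab27*, *RabX5*, *Rab9* and *Rab32* differed widely between groups.

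Each of the 3 pairs of groups was compared on total exon reads, with library sizes scaled by TMM (trimmed mean of M values) and edgeR's quasi-likelihood test, and a gene was called at a Benjamini-Hochberg adjusted p under 0.05 over all genes tested and a fold change above 1.5. Of the 30 members, 26 had enough reads for the test in each comparison, though not the same 26. Between adult trachea and whole flies 3 members were called higher and 2 lower, where 16.2% of all genes tested were called higher and 7.49% lower. Between adult and larval trachea 3 were higher and 0 lower, against 19.1% and 8.96% of all genes, 6 of the 26 had an unadjusted p under 0.05, and DESeq2 called 6 higher and 0 lower. Between larval trachea and whole flies 3 were higher and 3 lower, against 22.0% and 27.2% of all genes. The called share of the family was 19.2%, 11.5% and 23.1% in these comparisons, where 23.7%, 28.1% and 49.2% of all genes were called in either direction. Exon reads as a share of the library (CPM) in all 4 libraries of a group lay above those of the other group for 1 member and below for 4 in adult trachea against whole flies (11.5% and 20.8% of all genes), for 4 and 0 in adult against larval trachea (19.5% and 10.9%), and for 1 and 8 in larval trachea against whole flies (16.0% and 38.9%). The members' median log2 fold change was 0.07, 0.12 and 0.15, and that of all genes 0.14, 0.19 and -0.26.

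The scale mattered for these fold changes. Computed over all 12 libraries, the TMM factors were 1.20 to 1.28 in whole flies, 0.832 to 0.881 in larval trachea and 0.678 to 1.18 in adult trachea, whereas the deposited RPKM takes no such factor. The tests used factors computed anew within each pair of groups. On log2(RPKM + 0.1) the median of all genes was lower than on the TMM scale by 0.51 (log2) in adult trachea against whole flies. It was lower by 0.61 in larval trachea against whole flies and moved by 0.02 between the tracheae. That fit also differed in its filter and its library total, and the part of the TMM factors was not tested. The higher share of all calls was 68.3% with TMM, 37.1% on RPKM and 53.7% when an exon length offset was fitted in the first of these comparisons, 68.1%, 68.8% and 52.1% between the tracheae, and 44.8%, 27.8% and 54.4% for larval trachea against whole flies. Of the 26 members tested, 21, 19 and 12 kept 1 sign on TMM, RLE, RPKM and length-corrected scales in adult trachea against whole flies, adult against larval trachea and larval trachea against whole flies. The members' median in larval trachea against whole flies was -0.47 on RPKM, 0.15 with TMM and 0.56 with the length offset. In adult trachea against whole flies it was -0.43, 0.07 and 0.08. Calls below are on the TMM scale unless another is named. Among members not called on it, *Rab35*, *RabX1*, *RabX6* and *Rab27* were called lower in larval trachea against whole flies on RPKM (-0.91, -1.34, -1.35 and -3.64), *RabX6* was called lower in adult trachea against whole flies on RPKM (-1.79), and with the length offset *Rab4* and *Rab39* were higher (1.33 and 1.29) and *Rab35* lower (-0.78) in larval trachea against whole flies and *Rab40* lower (-0.92) in adult than in larval trachea.

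**Figure D2:**
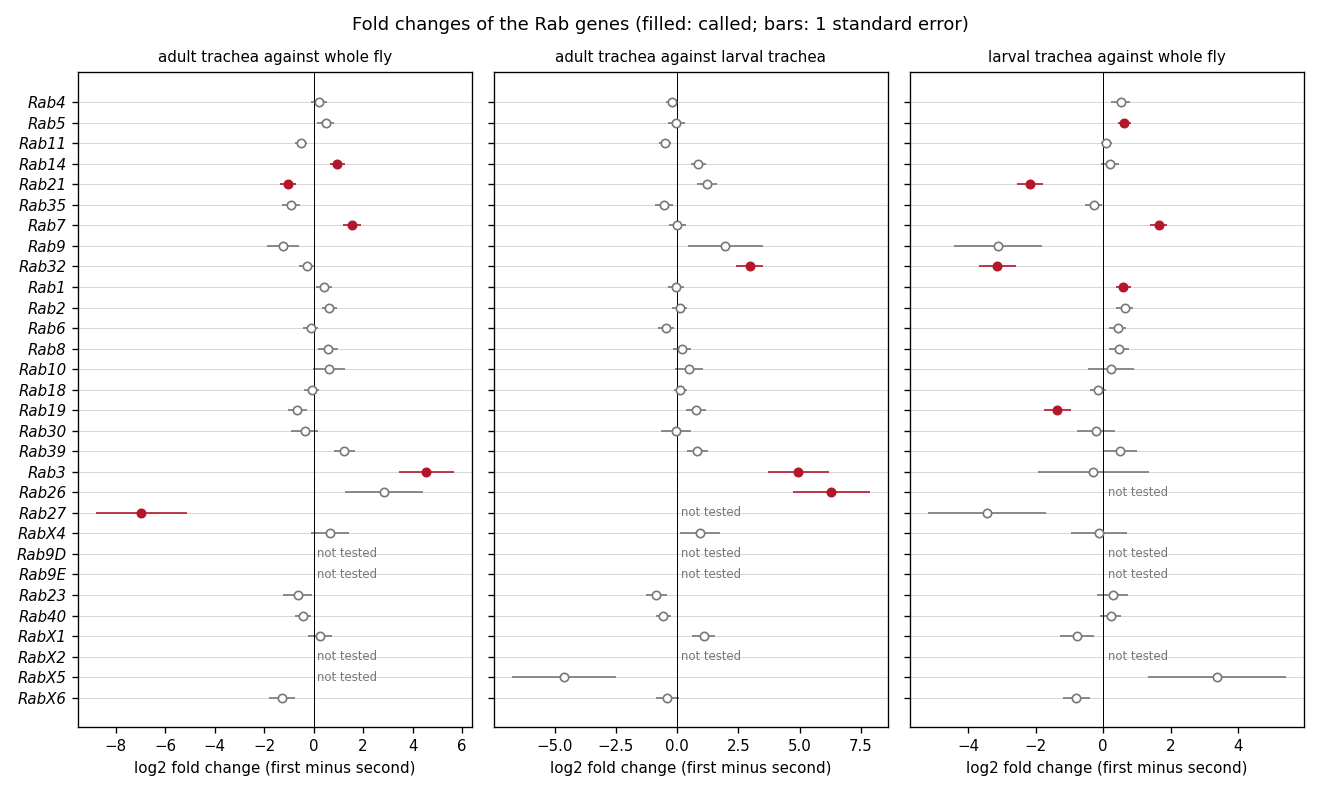
Log2 fold change of each Rab gene on the TMM scale in the 3 comparisons (first group minus second), with bars of 1 standard error over 8 libraries and filled points for called genes. *Rab7* lay to the right in both tracheae against whole flies, *Rab21* to the left in both, *Rab32* to the right in adult against larval trachea and to the left in larval trachea against whole flies. Fitted values of genes with almost no reads in 1 group, *Rab26* and *Rab27* among them, depend on the prior count.

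*Rab7* (FBgn0015795, chromosome 3R from 23993008 to 23995452 on BDGP6), the GTPase of late endosomes and of their fusion with lysosomes, was the highest member in both tracheae and rose in both against whole flies. In adult trachea replicates 1 to 4 it was at 206, 341, 139 and 105 RPKM (1802, 4209, 3523 and 2325 exon reads). In larval trachea it was at 203, 193, 151 and 209.95 RPKM (2372, 2351, 1292 and 2916 exon reads), and in whole flies at 130.1, 62.3, 98.8 and 81.8 RPKM (1194, 1047, 1206 and 756 exon reads). All larval libraries thus lay above all whole-fly libraries, while the lowest adult library lay below the highest whole-fly library. Its log2 fold change against whole flies was 1.64 in larval trachea (standard error 0.25, adjusted p = 0.000265) and 1.55 in adult trachea (standard error 0.37, adjusted p = 0.0136). Between the tracheae it was 0.01 (standard error 0.35, adjusted p = 0.989). The larval call held under all 20 alternatives, at log2 fold changes of 1.05 to 2.23. The adult call was lost without whole fly replicate 2 (1.33, adjusted p = 0.0542) and on RPKM (0.99, adjusted p = 0.0826), at the same sign. Fat body markers summed to 75.2 to 280 RPKM in larval trachea, below both other groups, and their part in the level of *Rab7* was not tested.

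*Rab11* (FBgn0015790, chromosome 3R from 21111408 to 21116146), the GTPase of recycling endosomes that returns E-cadherin and other cargo to the cell surface, was the highest member in whole flies, at 251, 251, 214 and 224 RPKM (2460, 4509, 2787 and 2214 exon reads). It was at 113, 179, 77.7 and 115.3 RPKM in adult trachea (1053, 2357, 2109 and 2720 exon reads) and at 162, 163, 154 and 175 RPKM in larval trachea (2015, 2124, 1401 and 2597 exon reads). In RPKM both tracheae lay below every whole-fly library. On the TMM scale it was not called in any comparison, with log2 fold changes of -0.50 in adult trachea against whole flies (adjusted p = 0.142), 0.10 in larval trachea against whole flies (adjusted p = 0.639) and -0.51 between the tracheae (adjusted p = 0.1501). On RPKM it was called lower in adult trachea than in whole flies (-1.02, adjusted p = 0.0362). The sign in larval trachea against whole flies turned with the scale, at -0.52 on RPKM and 0.62 with the length offset (adjusted p = 0.00702 and 0.00777), and with that offset *Rab11* was called lower in adult than in larval trachea (-0.84, adjusted p = 0.0268).

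The ratio of *Rab7* to *Rab11* within a library does not depend on how libraries are scaled. It was 1.83, 1.91, 1.78 and 0.913 in adult trachea, 1.26, 1.18, 0.985 and 1.20 in larval trachea, and 0.518, 0.248, 0.462 and 0.365 in whole flies. Every trachea library thus had a higher ratio than every whole-fly library, and adult trachea replicate 4 stood below the other adult ones. This pair was chosen after the levels were seen, so no test is given. The ratio of *Rab5* to *Rab7* was 0.221 to 0.284 in the 8 trachea libraries and 0.391 to 0.903 in whole flies, again without overlap. Of the summed family RPKM, *Rab7* took 12.8 to 23.4% in adult trachea, 18.1 to 21.2% in larval trachea and 5.14 to 9.69% in whole flies, and *Rab11* 11.6 to 13.97%, 16.5 to 18.4% and 18.7 to 20.8%.

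**Figure D3:**
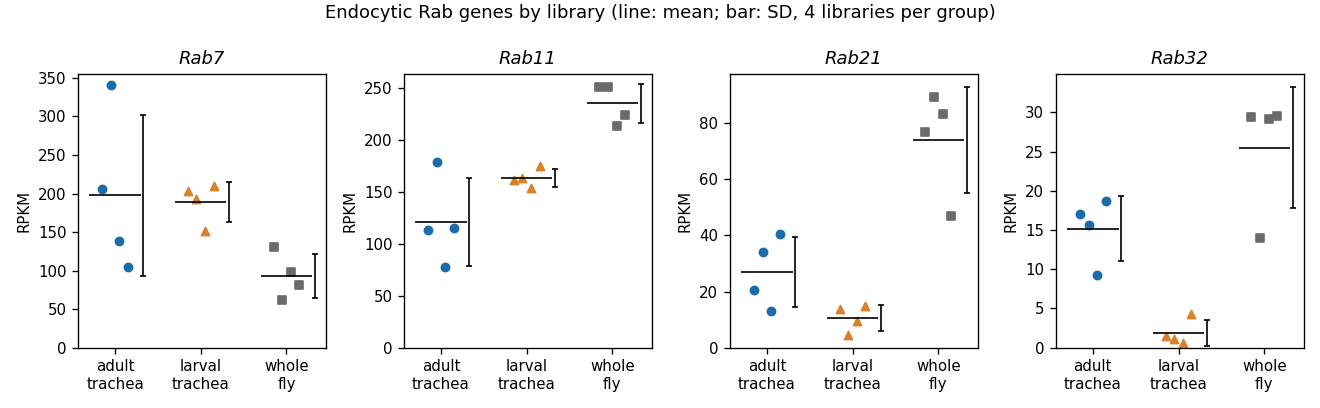
RPKM of 4 endocytic Rab genes by library, with the mean as a line and the SD as a bar over 4 libraries per group. *Rab7* was higher and *Rab11* lower in the tracheae than in whole flies, *Rab21* was lowest in larval trachea, and *Rab32* was at 0.635 to 4.29 RPKM in larval trachea against 9.29 to 18.7 RPKM in adult trachea.

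*Rab21* (FBgn0039966, chromosome X from 23012140 to 23013409), a GTPase of early endosomes that takes part in integrin traffic and autophagy, fell in both tracheae. It was at 20.6, 34.1, 12.99 and 40.5 RPKM in adult trachea (131, 307, 241 and 653 exon reads), 13.7, 4.38, 9.48 and 14.7 RPKM in larval trachea (117, 39, 59 and 149 exon reads) and 76.6, 89.2, 83.3 and 46.9 RPKM in whole flies (513, 1093, 742 and 316 exon reads). Neither trachea overlapped the whole flies, and the tracheae overlapped each other. On the TMM scale the log2 fold change was -2.17 in larval trachea against whole flies (standard error 0.39, adjusted p = 0.000821), where it held under all 20 alternatives at -2.89 to -1.31. It was -1.04 in adult trachea against whole flies (standard error 0.33, adjusted p = 0.0424), and this call was lost when any of adult trachea replicates 1, 2 and 3 or whole fly replicates 1, 2 and 3 was left out (adjusted p = 0.0759 to 0.103, log2 fold change of -1.10 to -0.91), with the length offset (-0.78, adjusted p = 0.0587) and in the fit of all 12 libraries (-1.08, adjusted p = 0.0553). With the replicate number as a block that call was lost too. Against larval trachea the adult value was 1.22 (adjusted p = 0.0550), which was not called. It was called with DESeq2, with RLE size factors and in the fit of all 12 libraries. Markers of midgut enzymes ran in the same order of groups, at 42110 to 46483 RPKM in whole flies, 1489 to 11745 RPKM in adult trachea and 9.85 to 78.7 RPKM in larval trachea. In adult trachea replicates 1 to 4 they were at 2550, 1489, 11745 and 6628 RPKM, highest where *Rab21* was lowest. Ovary and eggshell markers had medians of 8016, 1556 and 1.35 RPKM in the same order of groups. In adult trachea replicates 1 to 4 they were at 2848, 264, 63.9 and 11404 RPKM, highest and lowest in the same libraries as *Rab21*. The part of either list in the result was not tested.

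*Rab14* (FBgn0015791, chromosome 2L from 14355145 to 14358764), a GTPase of endosomes that matures phagosomes in fly haemocytes, was higher in adult trachea than in whole flies. It was at 46.1, 84.8, 48.7 and 48.8 RPKM in adult trachea (440, 1145, 1353 and 1178 exon reads), 28.1, 24.8, 39.6 and 30.5 RPKM in larval trachea (358, 331, 369 and 463 exon reads) and 54.1, 42.9, 34.9 and 32.3 RPKM in whole flies (542, 788, 465 and 326 exon reads). Adult trachea lay above all larval libraries and overlapped the whole flies through whole fly replicate 1. In log2 the change was 0.96 against whole flies (standard error 0.30, adjusted p = 0.0396) and 0.86 against larval trachea, not called (standard error 0.30, adjusted p = 0.0564). The latter was called with DESeq2, with RLE size factors and without adult trachea replicate 4. The call against whole flies was lost when any library but adult trachea replicate 4 and whole fly replicate 1 was left out (0.82 to 1.02, adjusted p = 0.0551 to 0.122). It was also lost with the replicate number as a block (0.97, adjusted p = 0.0846) and on RPKM (0.46, adjusted p = 0.328). Haemocyte markers summed to 52.4 to 135 RPKM in adult trachea, 16.1 to 33.3 RPKM in larval trachea and 20.4 to 23.9 RPKM in whole flies, and their part in it was not tested.

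*Rab5* (FBgn0014010, chromosome 2L from 2359142 to 2365273), the GTPase of early endosomes on which the uptake of luminal protein in the embryonic trachea depends, was called higher in larval trachea than in whole flies, a call that depended on the scale. It was at 49.2, 54.7, 40.7 and 51.3 RPKM in larval trachea (1062, 1235, 643 and 1319 exon reads), 50.9, 56.3, 52.4 and 36.6 RPKM in whole flies (864, 1749, 1185 and 625 exon reads) and 56.2, 75.3, 36.7 and 26.5 RPKM in adult trachea (909, 1721, 1727 and 1085 exon reads). In RPKM the 3 groups overlapped, with means of 49.0 ± 5.94, 49.0 ± 8.62 and 48.7 ± 21.6 (SD, n = 4). The log2 fold change in larval trachea was 0.63 on the TMM scale (standard error 0.20, adjusted p = 0.0206), 0.34 with a length offset (adjusted p = 0.198) and 0.01 on RPKM (adjusted p = 0.975). The call was lost without larval trachea replicate 2 (0.57, adjusted p = 0.0525) and, at a fold below 1.5, without whole fly replicate 4 (0.58, adjusted p = 0.0325). It was also lost in the fit of all 12 libraries, with the replicate number as a block and on total gene reads.

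The remaining early and recycling members were called in no comparison on the TMM scale. *Rab35*, which with its GAP *wkd* polarizes membrane traffic in tracheal terminal cells, was at 4.35 to 11.1 RPKM in adult trachea, 7.99 to 11.8 RPKM in larval trachea and 15.9 to 21.7 RPKM in whole flies, both tracheae lying below every whole-fly library. Its log2 fold change in adult trachea against whole flies was -0.91 (standard error 0.35, adjusted p = 0.0748) on the TMM scale and -1.62 with a length offset (adjusted p = 0.00657). *wkd* itself gave 0.57, 0.28 and 0.40 in the 3 comparisons (adjusted p = 0.230, 0.625 and 0.272). *Rab4*, a GTPase of fast recycling, was at 27.7 to 61.5, 41.2 to 61.9 and 38.9 to 79.3 RPKM in adult trachea, larval trachea and whole flies.

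*Rab32* (FBgn0002567, chromosome 2R from 9177864 to 9186342), known in flies as lightoid and needed to form the pigment granules of the eye, separated the larval trachea from both other groups. It was at 1.499, 1.09, 0.635 and 4.29 RPKM in larval trachea (42, 32, 13 and 143 exon reads), 17.02, 15.6, 9.29 and 18.7 RPKM in adult trachea (357, 464, 567 and 993 exon reads) and 29.4, 14.01, 29.2 and 29.5 RPKM in whole flies (647, 565, 855 and 654 exon reads). Every larval library lay below every other library. The log2 fold change was 2.96 in adult against larval trachea (standard error 0.55, adjusted p = 0.00299) and -3.14 in larval trachea against whole flies (standard error 0.55, adjusted p = 0.000831), and both calls held under all alternatives run, 21 and 20, at 2.60 to 3.73 and -3.96 to -2.86. Adult trachea and whole flies were not called apart on the TMM scale (-0.26, adjusted p = 0.561), and *Rab32* was called lower in adult trachea with the length offset (-1.08, adjusted p = 0.0485). The summed level of 10 markers of photoreceptors and eye pigment was also lowest in larval trachea. It was 4.15 to 11.3 RPKM there, 590 to 1393 RPKM in adult trachea and 611 to 729 RPKM in whole flies. In adult trachea replicates 1 to 4 the sum was 766, 1393, 671 and 590 RPKM, where *Rab32* was at 17.02, 15.6, 9.29 and 18.7 RPKM. Of these markers *ninaE*, the main rhodopsin, was at 477 to 1148 RPKM in adult trachea and at most 1.84 RPKM in larval trachea. The marker *w*, the gene mutated in all these animals, had 0 reads in both tracheae but was read in whole flies. The part of such transcripts in the level of *Rab32* was not tested.

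*Rab9*, which returns cargo from late endosomes to the Golgi and in the embryonic trachea retrieves the luminal chitin deacetylase Serpentine, was not called on the TMM scale in any comparison but was almost unread in larval trachea. It had 0, 32, 1 and 0 exon reads there (0, 2.78, 0.124 and 0 RPKM), against 27 to 49 reads in adult trachea (1.13 to 5.46 RPKM) and 65 to 179 reads in whole flies (7.45 to 15.5 RPKM). The log2 fold change in larval trachea against whole flies was -3.13 (standard error 1.30, adjusted p = 0.0666). It rested on larval trachea replicate 2, without which it was -7.28 (adjusted p = 0.000571). In adult trachea against whole flies it was -1.23 (adjusted p = 0.172), with no overlap of the RPKM ranges. On log2(RPKM + 0.1) *Rab9* was called in all 3 comparisons, at -1.82 in adult trachea against whole flies, 3.26 in adult against larval trachea and -5.08 in larval trachea against whole flies (adjusted p = 0.0339, 0.0398 and 0.00146), and DESeq2 called the last (-3.09, adjusted p = 0.0345).

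The secretory members gave few calls. Of 9, edgeR called 0 between adult trachea and whole flies (1 at an unadjusted p under 0.05, and 1 by DESeq2), 0 between the tracheae (0 at an unadjusted p under 0.05, and 0 by DESeq2), and 1 higher and 1 lower in larval trachea against whole flies. *Rab1* (FBgn0285937, chromosome 3R from 21266029 to 21269060), which carries vesicles from the endoplasmic reticulum to the Golgi, was at 90.2, 126, 79.4 and 60.7 RPKM in adult trachea (836, 1648, 2142 and 1423 exon reads), 105, 88.3, 94.0 and 80.6 RPKM in larval trachea (1299, 1144, 851 and 1188 exon reads) and 129, 81.7, 93.5 and 72.3 RPKM in whole flies (1255, 1456, 1212 and 709 exon reads). The 3 groups overlapped in RPKM. Its log2 fold change in larval trachea against whole flies was 0.59 on the TMM scale (standard error 0.22, adjusted p = 0.0455), 0.09 on uniquely mapped exon reads (adjusted p = 0.780) and -0.01 on RPKM (adjusted p = 0.985). The call was also lost when any of larval trachea replicates 1, 2 and 3 or whole fly replicates 2, 3 and 4 was left out (0.50 to 0.64, adjusted p = 0.0674 to 0.112). So it was without the filter on low counts, in the fit of all 12 libraries and on total gene reads. Only 44.4% of the exon reads of *Rab1* mapped to 1 place, against 100% for most members, so its level is uncertain.

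*Rab19* (FBgn0015793, chromosome 3L from 8297018 to 8298506), a Golgi GTPase, was the secretory member called lower in larval trachea. It was at 13.2, 5.67, 15.9 and 10.6 RPKM in larval trachea (100, 45, 88 and 96 exon reads), 17.3, 24.7, 9.19 and 34.5 RPKM in adult trachea (98, 198, 152 and 495 exon reads) and 36.4, 55.9, 61.0 and 26.6 RPKM in whole flies (217, 610, 484 and 160 exon reads). The larval libraries all lay below the whole flies, and the adult ones overlapped both. The log2 fold change in larval trachea against whole flies was -1.35 (standard error 0.41, adjusted p = 0.0168), and -0.65 in adult trachea against whole flies (adjusted p = 0.234). The larval call was lost with a length offset (-0.37, adjusted p = 0.470) and without whole fly replicate 2 or 3 (-1.16 and -1.12, adjusted p = 0.0634 and 0.0691).

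The other secretory members were called in no comparison on the TMM scale. *Rab18*, a GTPase of the endoplasmic reticulum and lipid droplets, was the third highest member in both tracheae, at 119 ± 51.2 RPKM in adult trachea, 99.0 ± 13.1 in larval trachea and 169 ± 43.4 in whole flies (SD, n = 4). *Rab2* and *Rab6*, which act at the Golgi, were at 64.0 ± 21.9 and 42.2 ± 13.6 RPKM in adult trachea, 58.7 ± 11.1 and 57.0 ± 15.5 RPKM in larval trachea, and 58.2 ± 14.3 and 65.4 ± 10.5 RPKM in whole flies. *Rab8* and *Rab10*, which act in exocytosis and polarized secretion, were at 34.9 ± 19.4 and 4.58 ± 1.78, 29.2 ± 4.52 and 3.13 ± 1.71, and 32.2 ± 12.9 and 4.15 ± 2.45 RPKM in the same order. None of these 5 was called on the TMM scale, and the groups overlapped except that *Rab18* in larval trachea lay below every whole-fly library in RPKM. The direction of *Rab18* in larval trachea against whole flies turned with the scale, called lower on RPKM (-0.75, adjusted p = 0.0108) and higher with the length offset (1.02, adjusted p = 0.00683). With that offset *Rab2* and *Rab6* were called higher there too (1.22 and 0.89, adjusted p = 0.00298 and 0.0104). *Rab39*, which acts with Staccato on the secretory lysosomes that join tracheal tubes, was at 12.9 to 29.7 RPKM in adult trachea against 6.24 to 18.8 RPKM in larval trachea and 6.94 to 16.6 RPKM in whole flies. Its log2 fold change against whole flies was 1.24 (standard error 0.42, adjusted p = 0.0508), and it was called with DESeq2 (1.27, adjusted p = 0.0122) and with the length offset (1.48, adjusted p = 0.0238). *Rab30* was at 1.36 to 11.3 RPKM over the 12 libraries.

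Of the neuronal members, *Rab26* and *Rab27* had few reads. Among called members, *Rab3*, *Rab26* and *Rab27* had the largest fitted changes of adult trachea against the other groups. *Rab3* (FBgn0005586, chromosome 2R from 10721335 to 10729203), the GTPase of synaptic vesicles and the active zone, was at 1.35, 12.3, 14.02 and 3.36 RPKM in adult trachea (26, 335, 788 and 164 exon reads), 0.814, 0.0371, 0 and 0.228 RPKM in larval trachea (21, 1, 0 and 7 exon reads) and 0, 0.458, 0.259 and 1.37 RPKM in whole flies (0, 17, 7 and 28 exon reads). Replicates 2 and 3 of the adult trachea were high, and replicate 1 lay at the level of whole fly replicate 4. The log2 fold change was 4.55 in adult trachea against whole flies (standard error 1.12, adjusted p = 0.0172) and 4.94 against larval trachea (standard error 1.24, adjusted p = 0.0154). The first call was lost without whole fly replicate 2 or 3 (4.40 and 4.24, adjusted p = 0.0635 and 0.0591). The second was lost without adult trachea replicates 3 and 4 together (4.25, adjusted p = 0.0588) and with the replicate number as a block. *Rab3* stood 18th of the 30 members in adult trachea by mean RPKM, 25th in whole flies and 26th in larval trachea.

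*Rab26* (FBgn0086913, chromosome 3L from 21318774 to 21335027), which in mammals marks clusters of synaptic vesicles for autophagy, was at 0.492, 1.33, 1.35 and 0.177 RPKM in adult trachea (11, 42, 88 and 10 exon reads), 0.0335, 0, 0 and 0 RPKM in larval trachea (1, 0, 0 and 0 exon reads) and 0.596, 0.0930, 0 and 0 RPKM in whole flies (14, 4, 0 and 0 exon reads). Its level was thus highest in the same 2 adult libraries as that of *Rab3*. Over the group, its 151 reads in adult trachea against 1 in larval trachea gave a ratio of 95.1 per TMM-scaled exon read, with an exact 95% interval of 16.8 to 3779 that covers counting error only, and the difference was called (edgeR, adjusted p = 0.0140). The call was lost on log2(RPKM + 1) (0.80, adjusted p = 0.0674) and with the replicate number as a block. The gene was not tested with filterByExpr. Against whole flies it was not called (adjusted p = 0.195). A group with 1 read passes the test only through the other group, so its call carries no size.

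*Rab27* (FBgn0025382, chromosome X from 1473884 to 1476974), which in mammals docks secretory granules, ran the other way and was nearly unread in both tracheae. It had 1, 0, 0 and 0 exon reads in adult trachea (0.124, 0, 0 and 0 RPKM), 0, 0, 10 and 0 in larval trachea (0, 0, 1.27 and 0 RPKM) and 1, 25, 118 and 71 in whole flies (0.118, 1.62, 10.5 and 8.35 RPKM). Whole fly replicates 3 and 4 held most of the reads, and replicate 1 stood at the level of the single adult trachea read. The ratio of whole flies to adult trachea was 222 (215 reads against 1, exact 95% interval of 39.5 to 8818, counting error only), and the gene was called lower in adult trachea (edgeR, adjusted p = 0.0210). With 1 read in adult trachea it passed the filter only through the whole flies, so this call too carries no size. The call was lost without whole fly replicate 3 (adjusted p = 0.0632), without adult trachea replicate 2 (adjusted p = 0.0534) and without adult trachea replicates 3 and 4 (adjusted p = 0.0774). It was also lost with the replicate number as a block. *RabX4*, which is read mainly in neurons, was at 2.47 to 9.62, 0.689 to 6.58 and 2.07 to 10.5 RPKM in adult trachea, larval trachea and whole flies, and shares 131 exon bases with *Kaz* on the same strand.

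In adult trachea neuron markers were high where *Rab3* and *Rab26* were, and their part in these results was not tested. The summed level of 17 neuron markers was 57.3, 162, 177 and 46.6 RPKM in adult trachea replicates 1 to 4, 37.7 to 48.9 RPKM in larval trachea and 13.6 to 23.2 RPKM in whole flies. In larval trachea this sum thus lay above that of whole flies, while mean *Rab3* and *Rab26* were lower there. The higher sum did not hold marker by marker. Of 12 markers tested in larval trachea against whole flies, 3 were called higher and 1 lower. *nSyb* was lower in every larval library than in every whole-fly library, and *elav* and *Snap25* overlapped. Larval libraries had reads in 10 to 14 of the 17 markers, and whole-fly libraries in 13 to 17. In the sum, replicates 2 and 3 of the adult trachea were again the high ones. Of the 17 markers 14 were called higher in adult trachea than in whole flies, 12 higher than in larval trachea, and *brp* and *VGlut*, defining proteins of the active zone and of glutamatergic vesicles, had 0 reads in larval trachea. *Rab27* was at 0 RPKM in both adult libraries that were high in these markers. With 1 read over all of adult trachea it had too few reads there to be compared with them.

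**Figure D4:**
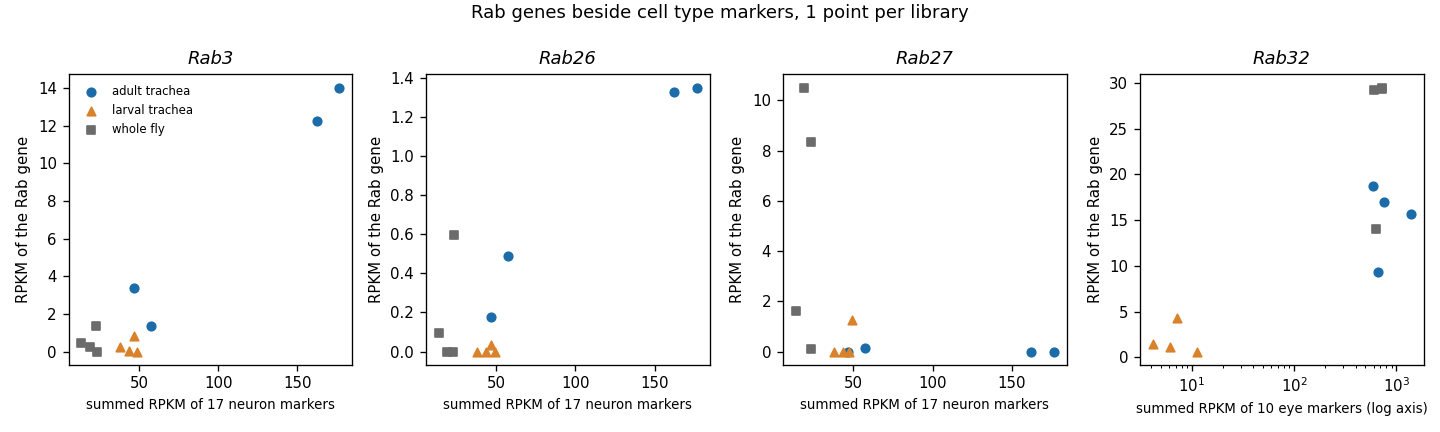
RPKM of *Rab3*, *Rab26* and *Rab27* against the summed RPKM of 17 neuron markers, and of *Rab32* against that of 10 eye markers (log axis), with 1 point per library. Adult trachea replicates 2 and 3 stood apart at 162 and 177 RPKM of neuron markers with the highest *Rab3* and *Rab26*, *Rab27* was read mainly in whole flies, and the 4 larval libraries were low in both *Rab32* and eye markers.

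Among the 8 members of other or unassigned role, edgeR called 0 in any comparison (1, 1 and 0 at an unadjusted p under 0.05, and 0, 1 and 0 by DESeq2 in the order above). *Rab9D*, *Rab9E* and *RabX2* had 0 exon reads in all libraries of adult trachea and whole flies, and in larval trachea *Rab9D* and *Rab9E* also had 0 and *RabX2* 1, which was not uniquely mapped. With 3 reads as the limit that a count of 0 allows, the deepest library resolved levels down to 0.216 CPM and the shallowest down to 0.656. These 3 genes have 1 exon each and lie on chromosome X between 10417429 and 10661843, and *Rab9Db*, *Rab9Fa* and *Rab9Fb*, also of 1 exon, lie on the same chromosome between 10622355 and 10952486. *RabX5* was read in only 4 libraries, with 3 reads in adult trachea, 41 and 28 in larval trachea replicates 2 and 4, and 12 in whole flies. *Rab23*, which orients wing hairs in the plane of the epithelium, *Rab40*, whose protein carries a box that recruits ubiquitin ligase, and *RabX1* were at 2.00 to 26.1, 10.2 to 47.3 and 2.90 to 15.6 RPKM over the 12 libraries. *RabX6* was at 2.29 to 15.9 RPKM in adult trachea, 7.44 to 14.1 RPKM in larval trachea and 14.3 to 44.6 RPKM in whole flies. It shares 466 exon bases with *Vti1a* on the opposite strand, and whether counting used the strand is not known here.

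The genes that switch, recycle or read Rab proteins were followed as lists. Of 15 Rab GAPs 7 were called higher and 0 lower in adult trachea than in whole flies, and 6 higher and 0 lower in larval trachea, where 16.2% and 22.0% of all genes were called higher. Of 30 effectors and tethers 6 were higher and 0 lower in adult trachea than in whole flies, a share near that of all genes, and of the 29 tested 9 were higher and 0 lower in larval trachea. Of 15 exchange factors edgeR called 0 in adult trachea against whole flies (0 at an unadjusted p under 0.05, and 0 by DESeq2), and 3 were higher and 2 lower in larval trachea. Between adult and larval trachea 1 GAP, 1 effector and 1 exchange factor were higher and 2 exchange factors lower, where 19.1% of all genes were called higher and 8.96% lower, and with an offset for exon length 4 effectors were lower. The median log2 fold changes of GAPs, effectors and exchange factors were 1.30, 0.29 and 0.09 in adult trachea against whole flies and 0.46, 0.66 and 0.07 in larval trachea against whole flies. These genes are long, with a median exon length of 4340 bases for the GAPs and 3183 for the effectors against 2056 for all genes with reads and 1706 for the Rab genes. With an offset for exon length 1 GAP was higher and 2 were lower in adult trachea against whole flies, and 3 effectors were higher and 1 lower, and on RPKM 1 GAP was higher and 1 lower and 3 effectors were higher. In larval trachea against whole flies 4 GAPs and 10 effectors were higher and 1 and 2 lower with the offset, and on RPKM 3 and 7 were higher and 2 and 4 lower. Exchange factors numbered 0 higher and 2 lower with the offset and 0 and 1 on RPKM in adult trachea against whole flies, and 3 higher and 4 lower with the offset and 1 and 5 on RPKM in larval trachea against whole flies. Of the 3 genes that prenylate or extract Rab proteins, *Gdi* was called higher in larval trachea than in whole flies (0.61, adjusted p = 0.0202), a call lost on RPKM.

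The partners with the largest changes belong in part to the neuronal members. *Rim*, the Rab3 effector of the active zone, was at 2.10 ± 2.19 RPKM in adult trachea, 0.106 ± 0.159 in larval trachea and 0.106 ± 0.0629 in whole flies (SD, n = 4), log2 fold changes of 5.01 and 4.55 for adult trachea (adjusted p = 0.0110 against whole flies and 0.0360 against larval trachea). *Rab3-GEF*, the exchange factor of Rab3, had 157, 1 and 209 exon reads in adult trachea, larval trachea and whole flies. Its ratio to larval trachea was 98.8 in adult trachea (exact 95% interval of 17.5 to 3928) and 136 in whole flies (24.1 to 5397), counting error only, and both differences were called (edgeR, adjusted p = 0.0140 and 0.00152). With 1 read in larval trachea, neither call carries a size. *Rab3-GEF* shares 461 exon bases with *Cyp4s3* on the opposite strand. In whole flies *Rab3* had 0 to 28 reads per library and its exchange factor 43 to 79. *CG42795*, counted here among the GAPs, had 456, 43 and 1 exon reads in the same order and was called higher in both tracheae than in whole flies (edgeR, adjusted p = 0.00601 and 0.0146). Its adult trachea libraries ranged from 0.0176 to 1.84 RPKM, and with 1 read in whole flies these calls carry no size. *TBC1D16*, also a GAP, was at 8.25 ± 3.39 RPKM in adult trachea and 0.296 ± 0.592 in larval trachea (log2 fold change of 4.75, adjusted p = 0.0250).

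*Ehbp1*, whose human counterpart binds Rab proteins of the Rab8 family, was higher in both tracheae than in whole flies, at 5.34 ± 2.44 RPKM in adult trachea, 6.04 ± 1.77 in larval trachea and 0.714 ± 0.182 in whole flies (SD, n = 4). Its log2 fold changes were 3.48 (standard error 0.59, adjusted p = 0.00287) and 3.70 (standard error 0.43, adjusted p = 3.96e-05), with no overlap of either trachea with the whole flies. *Sbf*, an exchange factor of Rab21, was at 4.19 ± 1.69 RPKM in larval trachea, 1.48 ± 0.973 in adult trachea and 0.519 ± 0.433 in whole flies, the reverse of the order of *Rab21*. It was called higher in larval trachea than in whole flies (3.63, standard error 0.85, adjusted p = 0.00473) and lower in adult than in larval trachea (-1.55, standard error 0.51, adjusted p = 0.0441). *spri*, whose mammalian counterparts are exchange factors of Rab5, was also lower in adult than in larval trachea (-1.48, standard error 0.36, adjusted p = 0.0121), with no overlap. *Trs23*, a subunit of the TRAPP complexes that activate Rab1, was lower in larval trachea than in whole flies (-1.15, standard error 0.40, adjusted p = 0.0342).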

How the data were processed

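The files hold 1 table per library. Per the paper's methods mapping to BDGP6 and counting were done by the authors with the CLC Genomics Workbench (version not given in the sources used here). The deposited counts are raw total, unique, exon and intron reads per gene. The deposited RPKM is, in the authors' files, total exon reads over exon length and the total gene reads of a library, and the deposited TPM values were not used. Gene positions are those of the files, all 30 equal to the Ensembl annotation of BDGP6, which gave the identifiers.

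Groups were taken from the sample titles. The run names inside the file names carry letters (LT for adult trachea, A for larval trachea, AT for whole flies) that could be read as other groups, and the titles, descriptions and leading file names agree on the groups used. Total exon reads were tested in R 4.3.3 with edgeR 4.0.16 (TMM, robust quasi-likelihood F-test), each comparison on its own 8 libraries, keeping genes that reached 10 reads in 2 or more of them. The test was checked on simulated counts with known changes. P-values were adjusted over all genes tested by the method of Benjamini and Hochberg. Levels are RPKM, compared between genes only per length. Read ratios were scaled by TMM factors over all 12 libraries, so they are not on the scale of the edgeR fold changes. Intervals of read ratios are exact binomial at 95%, and like the floor of 3 reads they cover counting error only, since amplified reads are not independent molecules. Nothing in the labels says that the pools were raised separately, so p-values measure the spread between these pools.

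Alternatives were DESeq2 1.42.0 (Wald test), RLE size factors, no filter, filterByExpr, all 12 libraries in 1 fit, the replicate number as a block, total gene reads, unique exon reads, limma 3.58.1 on log2(RPKM + 0.1) or log2(RPKM + 1) for genes reaching 0.5 RPKM in 2 or more libraries, an offset for exon length (a lowess trend per library), adjusted p alone, adult trachea replicates 3 and 4 left out, and each library left out in turn. The members and the lists were chosen with earlier results of these data known. By rule, every member was accounted for, with values per library for those called, for the highest of each group and for those at 0 reads throughout a group, and up to 3 called regulators or effectors were named per comparison and direction. *Rab9*, *wkd* and *Gdi* were given beyond that rule. *CG18627*, *CG5337*, *Golgin97* and *Caps* were listed but not found by name. Tables and figures were made in Python 3.11.15 with pandas 2.3.3, scipy and matplotlib 3.10.9.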

Additional observations from a re-analysis of the deposited data

Results flagged for a closer look

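Of 82 pairs of a member and a group, 11 had 1 library far from the other 3, by a gap to the nearest other library that exceeded the 95% critical value of Dixon's test. Chance flags about 1 in 20 groups, and groups with reads in a single library are always among them. *Rab14* stood at 84.8 RPKM in adult trachea replicate 2 against 46.1 to 48.8 RPKM in the others. *Rab23* stood at 26.1 RPKM in whole fly replicate 1 against 7.37 to 8.71 RPKM. *Rab32* stood at 14.01 RPKM in whole fly replicate 2 against 29.2 to 29.5 RPKM. *Rab9* stood at 2.78 RPKM in larval trachea replicate 2 against 0 to 0.124 RPKM. *Rab26* stood at 0.596 RPKM in whole fly replicate 1 against 0 to 0.0930 RPKM.

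In the others a single library held all reads of its group. These were *Rab26* in larval trachea replicate 1 (0.0335 RPKM), *Rab27* in adult trachea replicate 1 (0.124 RPKM) and larval trachea replicate 3 (1.27 RPKM), *RabX2* in larval trachea replicate 2 (0.176 RPKM), and *RabX5* in replicate 2 of adult trachea (0.448 RPKM) and of whole flies (1.32 RPKM). *Rab9Fa*, which the naming rule leaves out, had 19 exon reads in adult trachea replicate 1 and 5 in larval trachea replicate 1, none uniquely mapped, and 0 in whole flies.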

How the results depend on the processing

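Over 21 fold changes and their alternatives, 350 of 431 values kept direction and call, 52 lost the call, 27 gained one and 2 reversed. The reversals were *Rab1* in larval trachea against whole flies, at -0.0052 on log2(RPKM + 0.1) and -0.0054 on log2(RPKM + 1). *Rab7*, *Rab21* and *Rab32* in larval trachea against whole flies and *Rab32* between the tracheae kept their calls throughout. Which alternatives changed a count of called members by over 1.5 times follows, and their cause was not tested.

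In adult trachea against whole flies, members higher numbered 1 in both RPKM fits against 3. Members lower numbered 6 in both RPKM fits, 1 with filterByExpr (in which *Rab27* was not tested), 1 without adult trachea replicates 3 and 4 and 0 with the replicate block, against 2. Leaving out 1 library gave 0 to 6 higher and 0 to 2 lower. In adult against larval trachea, members higher numbered 6 with DESeq2, 5 with RLE size factors and 1 with the replicate block against 3, and members lower 1 in the fit of all 12 libraries and 2 with the length offset against 0. Leaving out 1 library gave 3 to 5 higher and 0 lower. In larval trachea against whole flies, members higher numbered 1 in the fit of all 12 libraries, 1 on total gene reads, 1 in both RPKM fits and 8 with the length offset, against 3, and members lower 9 in both RPKM fits against 3. Leaving out 1 library gave 1 to 7 higher and 2 to 4 lower.

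Same-numbered libraries did not deviate together more than others (correlations over genes of -0.086 to 0.044, against -0.069 to 0.101 for differently numbered ones). No pairing by number was thus seen, though the check cannot exclude one. With the replicate block 2 members were higher and 0 lower in adult trachea against whole flies, 1 and 0 between the tracheae, and 2 higher and 4 lower in larval trachea against whole flies. Over all genes, calls in adult trachea against whole flies ran from 905 to 2207 higher and 307 to 2044 lower over the alternatives (1601 and 742 in the main analysis), between the tracheae from 1291 to 2316 and 675 to 1589 (1886 and 885), and in larval trachea against whole flies from 1595 to 2312 and 1937 to 4219 (2092 and 2582). Members below about 1 RPKM, such as *Rab3*, *Rab26* and *Rab27* in most groups, rest on few reads.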
